A study of Mus musculus with 14 samples.

Results

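The 8 genes described here, Rnf43, Znrf3, Celsr1, Daam1, Lef1, Tcf7l2, Axin2 and Lrp6, are parts of WNT signalling and of planar cell polarity, out of 41053 gene rows in each of 2 count tables. They were taken by name from both tables. They had been chosen by their measured read counts in these same libraries, in contrasts that are not recorded, so their levels and changes are given as a description, with no p-value. Spleen B cells of C57BL/6 mice were profiled by RNA sequencing in 14 libraries. Germinal center (GC) B cells, which divide and mutate their antibody genes, gave 4 libraries with the genotype TET2 Knock-Out (KO) and 3 with the genotype TET2 Wild-Type (WT). Lymphoma B cells gave 2 libraries labelled as a TET2 knock-down (shTet2, a short hairpin RNA against Tet2) and 5 control libraries. The labels describe no allele, Cre driver, control hairpin, age or number of animals, and do not say how the lymphoma arose. The TET2 enzyme adds oxygen to methylated cytosines of the genome, and the comparisons ask which transcripts differ where it is deleted or targeted.

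In canonical WNT signalling a secreted WNT protein binds a Frizzled receptor together with the co-receptor LRP6, and beta-catenin is then spared from a cytoplasmic destruction complex. Beta-catenin enters the nucleus and joins the DNA-binding factors LEF1 and TCF7L2 to switch on target genes, among them Axin2, whose product is a scaffold of the destruction complex. RNF43 and ZNRF3 are membrane ubiquitin ligases that remove Frizzled receptors from the cell surface. CELSR1 is an atypical cadherin of the planar polarity system, which orients cells within a tissue, and DAAM1 is a formin that links Dishevelled to the actin skeleton. In the B lineage, canonical WNT signalling and Lef1 are best known from precursor cells in the bone marrow and fetal liver.

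On GRCm38, as the files give the gene models, Rnf43 (chromosome 11, 87662722 to 87735539, plus strand), Znrf3 (chromosome 11, 5276324 to 5444847, minus strand) and Axin2 (chromosome 11, 108920349 to 108950783, plus strand) share a chromosome. Celsr1 lies on chromosome 15 (85898758 to 86033777, minus strand) and Daam1 on chromosome 12 (71831078 to 71992367, plus strand). Lef1 lies on chromosome 3 (131110471 to 131224356, plus strand), 2.24 Mb from Tet2 on the same chromosome. Tcf7l2 is on chromosome 19 (55741810 to 55933654, plus strand) and Lrp6 on chromosome 6 (134446476 to 134566965, minus strand). The exons of 7 of the 8 genes overlap no other gene in the files. Axin2 shares 209 exon bases, 3.8% of its exon length, with Gm11670 on the other strand, and counts made without a strand option cannot tell the pair apart there.

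Because TET2 acts on methylated cytosine, which in mammals lies mostly in the base pair CG, the DNA before the start sites was read for CG pairs. RefSeq windows (GRCm38.p6, 250 bases before to 50 after a start) were matched for 5 of the 8 genes, and Znrf3, Celsr1 and Lrp6 were not matched. The median of 32851 windows of 300 bases held 7 CG pairs (quartiles 3 and 20). The windows of Daam1 held 13 and 5, those of Rnf43 10 and 3, those of Lef1 18, 21, 8 and 5, those of Tcf7l2 34 and 7, and that of Axin2 31. The 250 bases before a start are shown for Rnf43 and Daam1, the pair with the largest fitted decreases among the 8 in KO GC B cells, and for Axin2 as a CG-rich contrast. CG pairs are in capitals and the strand is plus for all. The Rnf43 stretch lies before a start inside the deposited gene model, since the window of the first start overlaps a deposited exon.
Rnf43 chr11:87699647-87699896: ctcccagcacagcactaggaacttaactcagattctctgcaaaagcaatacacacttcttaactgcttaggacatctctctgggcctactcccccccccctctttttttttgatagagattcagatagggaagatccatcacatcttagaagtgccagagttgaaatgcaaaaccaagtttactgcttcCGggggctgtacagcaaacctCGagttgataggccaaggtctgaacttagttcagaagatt
Daam1 chr12:71830818-71831067: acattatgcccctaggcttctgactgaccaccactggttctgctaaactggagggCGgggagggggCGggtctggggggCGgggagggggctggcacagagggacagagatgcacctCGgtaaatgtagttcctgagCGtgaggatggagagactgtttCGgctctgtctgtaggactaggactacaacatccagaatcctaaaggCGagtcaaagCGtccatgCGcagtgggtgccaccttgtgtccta
Axin2 chr11:108920099-108920348: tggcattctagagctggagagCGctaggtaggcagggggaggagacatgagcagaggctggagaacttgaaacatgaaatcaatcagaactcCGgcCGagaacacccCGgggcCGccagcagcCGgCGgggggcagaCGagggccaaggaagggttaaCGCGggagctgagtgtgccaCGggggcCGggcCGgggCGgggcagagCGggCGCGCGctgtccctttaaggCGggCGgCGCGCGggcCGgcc
The stretches hold 2 CG pairs in Rnf43, 9 in Daam1 and 24 in Axin2. The Rnf43 stretch is from a later start, unlike those of Daam1 and Axin2, so these counts do not compare the genes. The window of the first Rnf43 start held 10 CG pairs. Of 2 spellings of the motif bound by LEF1 and TCF7L2, CTTTGAT occurs on either strand in 3.73% and CTTTGAA in 5.14% of all windows. Neither of these 2 spellings was found in any window of the 5 matched genes, and other spellings of the motif were not counted. DNA methylation was not measured in these libraries.

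Each KO library held 29487244 to 30330950 counts and each WT library 27191862 to 30434184, with 9386084 to 14741588 in shTet2 and 6691167 to 18598386 in control lymphoma libraries. Ribosomal and other structural RNA rows were picked by hand in a shorter and a wider list, the wider added after seeing the data. The wider list took 45.0% to 54.0% of counts in shTet2 and 57.5% to 80.7% in control libraries. Other genes kept 5165500 to 6775820 counts in shTet2 and 1525883 to 6282655 in control libraries. In the GC B cells the share of the wider list lay between 0.713% and 1.04% for KO and between 0.370% and 1.32% for WT libraries. Values are CPM, read counts relative to library size scaled by the TMM method within a table unless said otherwise, and a gene is "called" where edgeR's quasi-likelihood test gave an adjusted p under 0.05 over all genes of the fit. No label says that libraries of a group came from separate animals, so the tests measure the spread between these libraries. The targeted gene, Tet2, was not called lower in either contrast. It had a log2 fold change of 0.04 (SE 0.13, edgeR adjusted p = 0.909) in KO against WT, where counts over the whole gene do not check a deletion. In shTet2 against control it was -0.21 (SE 0.10, edgeR adjusted p = 0.295). There both shTet2 libraries (54.9 and 50.7 CPM) lay below every control library (57.5 to 68.0 CPM). Groups did not overlap for 21.2% of all genes tested in that contrast.

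In KO GC B cells the receptor ligase gene Rnf43, the polarity cadherin gene Celsr1 and the formin gene Daam1 were lower than in WT GC B cells, by 3.67-fold, 2.10-fold and 3.16-fold. The other ligase gene Znrf3, the co-receptor gene Lrp6 and the transcription factor genes Lef1 and Tcf7l2 overlapped between KO and WT libraries. Axin2 was too low to enter the test. Of the 8 genes 7 passed the filter on low counts, and 3 were called, all lower. Over all 13600 genes tested 6.49% were called, 1.92% higher and 4.57% lower. In bulk RNA, fewer cells of a type and less RNA per cell cannot be told apart.

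Rnf43 had 3.97, 4.33, 3.66 and 5.22 CPM in the KO libraries (replicates 2 to 5), against 17.0, 13.9 and 16.4 CPM in the WT libraries (replicates 1, 3 and 4). Every KO library lay far below every WT library, and the fitted log2 fold change was -1.87 (SE 0.16). Znrf3, which encodes the closest relative of RNF43 and has the same role at Frizzled receptors, did not follow it. It had 10.5, 14.7, 10.8 and 11.4 CPM in KO libraries, against 10.9, 9.89 and 10.1 CPM in WT libraries, a log2 fold change of 0.20 (SE 0.15). The single high KO library, replicate 3, stood above the rest, and the other KO libraries were within or just above the WT range.

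Celsr1 had 12.2, 15, 14.7 and 15.1 CPM in the KO libraries, against 34.1, 29.1 and 26.6 CPM in the WT libraries. The groups did not overlap, and the log2 fold change was -1.07 (SE 0.12). Daam1 had 15.9, 12.7, 13.8 and 14.7 CPM in KO libraries, against 51.7, 55.1 and 28.6 CPM in WT libraries. The KO libraries were close together, while WT replicate 4 was low among the WT libraries and still above every KO library. The fit gave -1.66 (SE 0.20), and without WT replicate 4 it gave -1.91. Of all 13600 genes tested 18.3% had KO and WT libraries that did not overlap in CPM, as did these 3 of the 8.

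Lrp6, the co-receptor gene, had 25.8, 35.2, 28.7 and 27.6 CPM in KO libraries, against 34.9, 32 and 30.0 CPM in WT libraries. The libraries of both groups were mixed, with a log2 fold change of -0.14 (SE 0.11). Lef1 was low, with 1.20, 2.0, 1.46 and 1.54 CPM in KO libraries and 1.48, 1.53 and 2.3 CPM in WT libraries. Its fitted change of -0.18 (SE 0.28) was smaller than its error, and its sign turned when single libraries were left out (-0.34 to 0.04). Tcf7l2 had 0.233, 0.460, 0.105 and 0.301 CPM in KO libraries, against 0.516, 0.365 and 0.519 CPM in WT libraries, from 3 to 14 counts per KO library and 11 to 16 per WT library. At these counts the log2 fold change of -0.75 had an SE of 0.50. Axin2 had 4, 2, 2 and 18 counts in KO libraries (0.133, 0.0657, 0.0697 and 0.602 CPM), against 6, 7 and 8 counts in WT libraries (0.193, 0.232 and 0.297 CPM). The groups of this target gene of the pathway overlapped, and at such counts a small difference could be missed.

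**Figure D1:**
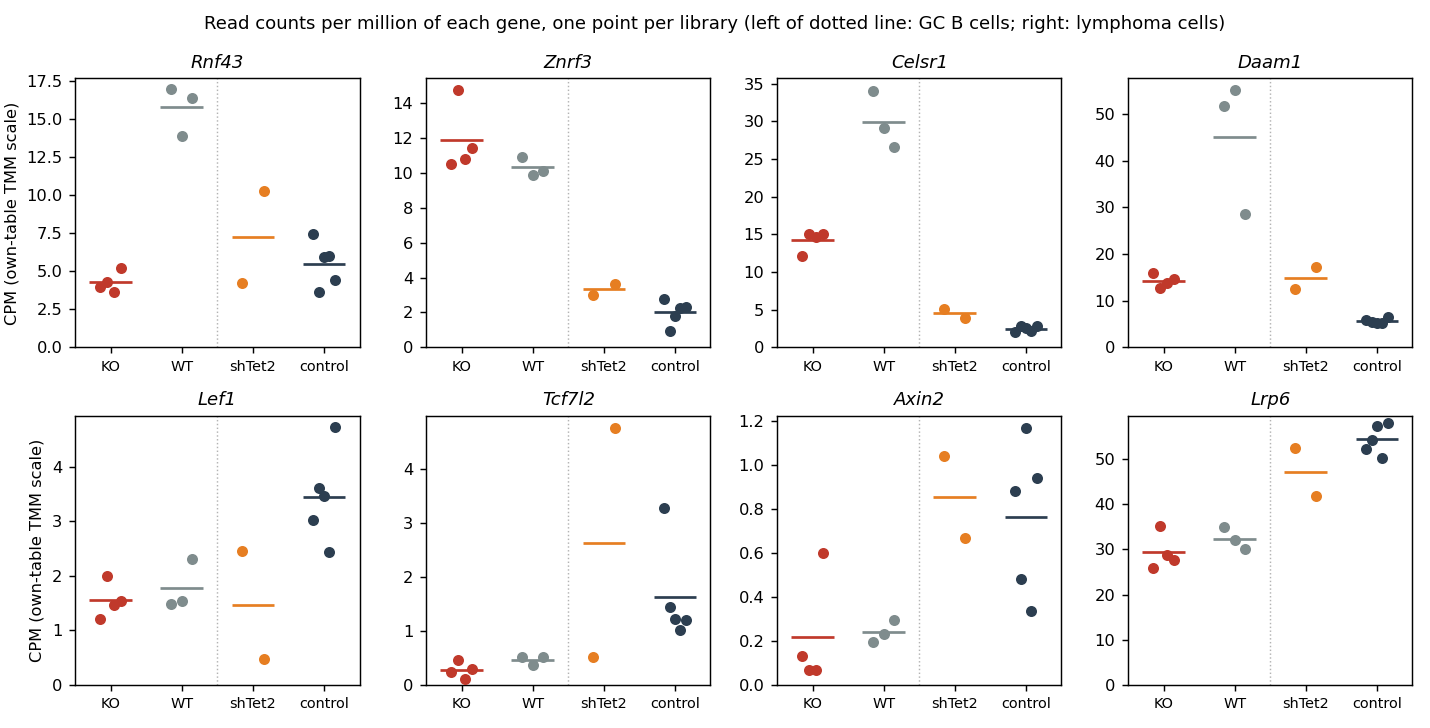
CPM (own-table TMM scale, linear axes from 0) of each of the 8 genes, with 1 point per library and a bar at the group mean: KO and WT GC B cells left of the dotted line, shTet2 and control lymphoma cells right of it. The KO points of Rnf43, Celsr1 and Daam1 lie below all WT points, and the shTet2 points of Znrf3, Celsr1 and Daam1 lie above all control points.

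Markers of other cells moved with this contrast. Among myeloid markers, 8 of 9 tested were called lower in KO, and the 12 markers summed to 32 to 36.2 CPM in KO libraries and 60.6 to 81.5 CPM in WT libraries, with none at 0. Of 7 markers of naive and memory B cells, 4 were called lower, with sums of 852.1 to 1030.8 CPM in KO and 1197.1 to 1342.2 CPM in WT libraries, none at 0. Of 12 T-cell markers 7 were tested and 1, Thy1, was called higher. The 12 summed to 13.2 to 16 CPM in KO and 7.47 to 12.3 CPM in WT libraries, with Trat1 at 0 in both. Lat, not called, had the highest mean of the 7, at 8.13 CPM in KO and 5.12 CPM in WT libraries. Thy1, Lat, Zap70 and Cd4 had a fitted increase in KO, and Cd3g, Cd28 and Cd3d a fitted decrease. Cd3g, not called, had a mean of 0.271 CPM in KO and 0.771 CPM in WT libraries. The 6 GC B-cell markers held none that was called, and summed to 1833.6 to 1897.0 CPM in KO and 1708.0 to 2040.2 CPM in WT libraries. Of the other markers tested, 0 of 6 of plasma cells, 0 of 1 of B-cell precursors, 0 of 3 of stroma and endothelium and 0 of 5 of erythroid cells were called. The part of other cells in the lower Rnf43, Celsr1 and Daam1 was not tested.

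In shTet2 lymphoma cells Daam1 was 2.62-fold higher than in control lymphoma cells, and Znrf3 and Celsr1 were higher in both shTet2 libraries than in every control library. Rnf43, Lef1, Tcf7l2, Axin2 and Lrp6 overlapped between the groups. All 8 genes passed the filter, and 1 of them, Daam1, was called, in the higher direction. Over all 12797 genes tested 2.58% were called, 1.84% higher and 0.742% lower. These 330 calls became 2481 without shTet2 replicate 1, 130 without shTet2 replicate 2, and 127, 143, 100 and 189 without control replicates 1 to 4.

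Daam1 had 12.6 and 17.3 CPM in the shTet2 libraries (replicates 1 and 2), against 5.92, 5.54, 5.16, 5.22 and 6.61 CPM in the control libraries (replicates 1 to 5). The control libraries were tightly grouped and both shTet2 libraries stood well above them, with a log2 fold change of 1.39 (SE 0.17). Leaving out any 1 library gave 1.14 to 1.60, called each time. The share of structural RNA on the shorter list was 32.9% and 18.8% in shTet2 libraries and 36.4% to 65.6% in control libraries. With that share as a covariate, which differs between the groups without overlap, the change was 1.05 and was not called. Celsr1 had 5.16 and 3.95 CPM in shTet2 libraries, against 2.02, 2.89, 2.64, 2.19 and 2.83 CPM in control libraries. The groups were apart, the log2 fold change was 0.87 (SE 0.24), and the gene was not called. Znrf3 had 3.02 and 3.62 CPM in shTet2 libraries and 2.77, 0.963, 1.82, 2.27 and 2.32 CPM in control libraries. The gap between the lower shTet2 and the highest control library was small, the log2 fold change was 0.66 (SE 0.30), and it was not called. With the covariate its log2 fold change was 0.03. Groups that did not overlap were found for 21.2% of all genes tested, and for these 3 of the 8.

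The 2 shTet2 libraries went apart for several members. Rnf43 had 4.22 CPM in replicate 1 and 10.3 CPM in replicate 2, against 7.43, 3.61, 5.92, 5.98 and 4.46 CPM in control libraries. One shTet2 library lay among the controls and the other above all of them, with a log2 fold change of 0.36 (SE 0.33). Tcf7l2 had 0.521 and 4.76 CPM (10 and 71 counts), against 3.28, 1.44, 1.23, 1.01 and 1.20 CPM in controls. Here replicate 1 was below and replicate 2 above every control library, and the log2 fold change of 0.71 had an SE of 0.77. For Lef1 the order was the other way round, with 2.45 CPM (47 counts) in replicate 1 and 0.469 CPM (7 counts) in replicate 2, against 3.02, 3.61, 3.46, 2.44 and 4.72 CPM in controls. Replicate 1 was level with the lowest control library and replicate 2 was far below it, giving -1.19 (SE 0.49).

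Lrp6 had 52.5 and 41.9 CPM in shTet2 libraries, against 52.3, 54.2, 57.4, 50.2 and 58.0 CPM in controls, a log2 fold change of -0.20 (SE 0.11). Replicate 1 was among the controls and replicate 2 below them. Axin2 had 1.04 and 0.670 CPM in shTet2 libraries (20 and 10 counts), against 0.882, 0.482, 1.17, 0.337 and 0.944 CPM in control libraries (2 to 20 counts). Its groups were mixed, with a log2 fold change of 0.10 (SE 0.48). Without shTet2 replicate 1, which leaves a lone library assumed to vary like the controls, Rnf43 (0.86), Lef1 (-2.86), Tcf7l2 (1.60) and Lrp6 (-0.39) were called as well as Daam1, and Axin2 was at -0.28. Without shTet2 replicate 2, Rnf43 was at -0.40 and Tcf7l2 at -1.57, neither called.

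Beside these values, 2 of 6 GC B-cell markers, S1pr2 and Fas, were called higher in shTet2 cells, with sums of 168.7 to 222.7 CPM in shTet2 and 117.3 to 147.3 CPM in control libraries, none at 0. Of 6 plasma-cell markers 5 were tested and 2, Prdm1 and Xbp1, were called higher. The 6 summed to 292.2 to 485.3 CPM in shTet2 and 217.0 to 301.1 CPM in control libraries, none at 0. Igj and Irf4, neither called, had the highest means of the 5. Igj was at 184.4 ± 133.3 CPM (SD) in shTet2 and 62.1 ± 21.9 CPM in control libraries. Irf4 had a fitted decrease, with means of 116.2 CPM in shTet2 and 138.3 CPM in control libraries. Prdm1, Xbp1, Igj and Sdc1 had a fitted increase. The 12 myeloid markers summed to 40.0 and 134.3 CPM in the 2 shTet2 libraries and to 39.9 to 61.7 CPM in control libraries, and 0 of 11 tested were called. None was called among 7 naive and memory B-cell, 10 T-cell, 2 precursor, 3 stromal and endothelial and 2 erythroid markers tested. The part of the GC B-cell, plasma-cell and myeloid markers in the values of the 8 genes was not tested.

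Set against each other in 1 model of all 4 groups, the shTet2 effect in lymphoma cells and the KO effect in GC B cells differed for Rnf43, Celsr1 and Daam1, each higher in the shTet2 effect. The difference of the log2 fold changes, shTet2 effect minus KO effect, was 3.02 (SE 0.27) for Daam1, 2.20 (SE 0.36) for Rnf43 and 1.91 (SE 0.23) for Celsr1. Daam1 was high in shTet2 cells and low in KO cells, so both contrasts add to its difference. For Rnf43 the KO change was -1.87 and the shTet2 change 0.36 (SE 0.33). The remaining members had differences of 1.41 (SE 0.89) for Tcf7l2, -1.04 (SE 0.55) for Lef1, 0.42 (SE 0.31) for Znrf3, 0.21 (SE 0.91) for Axin2 and -0.10 (SE 0.16) for Lrp6, and none was called. Over 15441 genes 4.99% were called, 3.39% higher and 1.61% lower, and of the 8 genes 3 were called higher. These 771 calls became 2001 without shTet2 replicate 1, 283 without shTet2 replicate 2, 510 without control replicate 3, 499 without KO replicate 5 and 455 without WT replicate 3. Without shTet2 replicate 1, Lef1 (-2.73) and Tcf7l2 (2.29) were called as well, while without shTet2 replicate 2 Tcf7l2 was at -0.92 and Lef1 at -0.38, neither called. Leaving out single libraries gave 1.40 to 2.71 for Rnf43. Cell-type markers differed in this fit too. Called higher were 4 of 6 GC B-cell markers (median difference 1.60) and 4 of 12 myeloid markers. So were 2 of 6 plasma-cell and 1 of 7 naive and memory B-cell markers. None was called among 11 T-cell, 2 precursor, 3 stromal and endothelial and 5 erythroid markers tested. The part of the markers in the differences of the 8 genes was not tested.

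**Figure D2:**
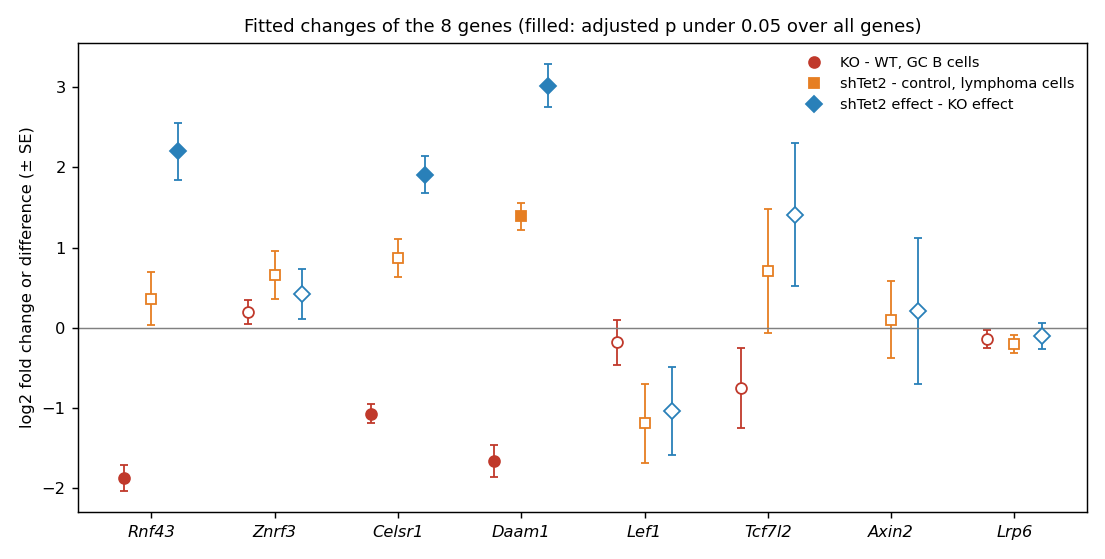
Fitted log2 fold change of each gene in KO against WT GC B cells (circles) and in shTet2 against control lymphoma cells (squares), and the difference between those effects (diamonds), with bars of 1 SE and filled symbols where the adjusted p over all genes was under 0.05. Daam1 has the largest difference, 3.02, with -1.66 for KO and 1.39 for shTet2; Axin2 has no circle because it did not pass the filter in GC B cells.

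To set levels of different genes and cell kinds side by side, CPM on a scale common to all 14 libraries were divided by exon length in kilobases. Lrp6 was highest in lymphoma cells, at 7.53 ± 1.20 (SD, n = 2) in shTet2 and 8.56 ± 0.548 (SD, n = 5) in control cells, against 1.95 ± 0.271 (SD, n = 4) in KO and 2.08 ± 0.158 (SD, n = 3) in WT GC B cells. The lymphoma libraries were all above the GC B-cell libraries, and within each cell kind the 2 groups overlapped. Daam1 was at 3.90 ± 0.871 in shTet2 and 1.46 ± 0.158 in control lymphoma cells, and at 1.56 ± 0.146 in KO and 4.75 ± 1.54 in WT GC B cells. The shTet2 lymphoma and WT GC B-cell libraries overlapped at the top, and the KO GC B-cell and control lymphoma libraries overlapped each other below both.

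Rnf43 was at 0.428 ± 0.0663 CPM per kilobase in KO and 1.52 ± 0.153 in WT GC B cells, and at 1.73 ± 1.02 in shTet2 and 1.29 ± 0.355 in control lymphoma cells. The KO GC B cells stood alone below the other groups, whose libraries overlapped. Celsr1 was at 0.843 ± 0.0811 in KO and 1.71 ± 0.217 in WT GC B cells, and at 0.646 ± 0.121 in shTet2 and 0.351 ± 0.0533 in control lymphoma cells. The WT GC B cells were highest and the control lymphoma cells lowest, and the KO GC B-cell and shTet2 lymphoma libraries between them overlapped. Znrf3 was at 0.982 ± 0.162 in KO and 0.823 ± 0.0425 in WT GC B cells, above 0.659 ± 0.0834 in shTet2 and 0.398 ± 0.136 in control lymphoma cells. On this common scale the lowest KO library (0.873) and the highest WT library (0.872) of Znrf3 only just parted, whereas they overlapped on the scale of their own table.

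The factor genes and the target gene were the lowest of the 8 per kilobase in GC B cells. Lef1 was at 0.264 ± 0.254 in shTet2 and 0.616 ± 0.152 in control lymphoma cells, against 0.117 ± 0.0251 in KO and 0.129 ± 0.0330 in WT GC B cells. The spread of its shTet2 libraries reached both the control lymphoma and the GC B-cell levels. Tcf7l2 was at 0.473 ± 0.537 in shTet2 and 0.289 ± 0.165 in control lymphoma cells, against 0.0206 ± 0.0110 in KO and 0.0337 ± 0.00619 in WT GC B cells. Axin2 was at 0.244 ± 0.0750 in shTet2 and 0.215 ± 0.0979 in control lymphoma cells, against 0.0258 ± 0.0306 in KO and 0.0276 ± 0.00592 in WT GC B cells. For Tcf7l2 and Axin2 every lymphoma library lay above every GC B-cell library, and the groups within each cell kind overlapped.

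**Figure D3:**
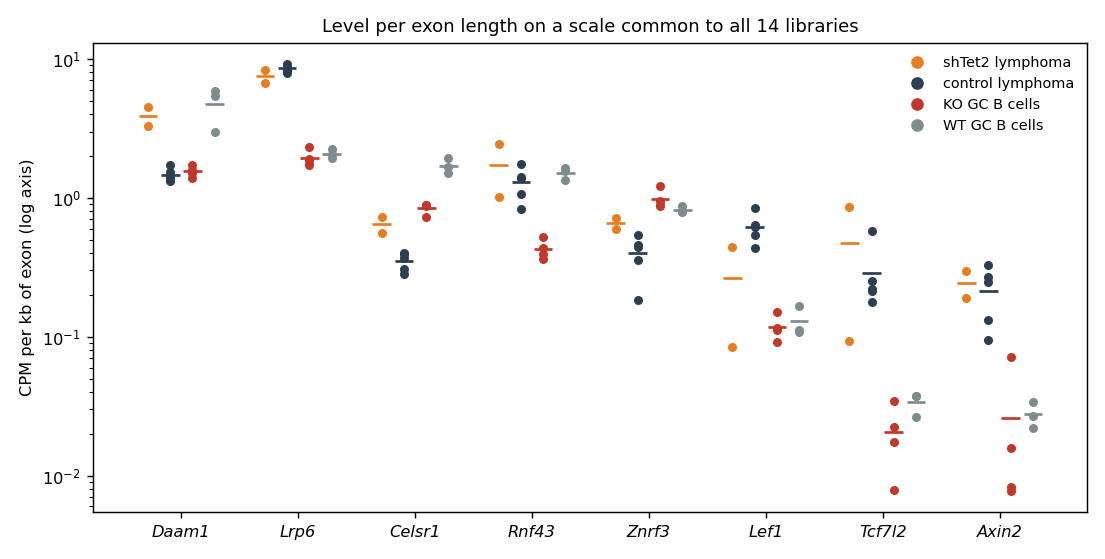
Level of each gene in CPM per kilobase of exon on a log axis, on the scale common to all 14 libraries, with 1 point per library and a bar at the group mean for shTet2 lymphoma, control lymphoma, KO GC B cells and WT GC B cells. Lrp6, Lef1, Tcf7l2 and Axin2 are higher in control lymphoma cells than in WT GC B cells, and Celsr1, Znrf3 and Daam1 are lower.

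Between control lymphoma cells and WT GC B cells, 7 of the 8 genes were called, 4 higher and 3 lower. Of all 15441 genes 80.7% were called, 40.2% higher and 40.4% lower. The log2 fold change was 3.04 (SE 0.62) for Tcf7l2, 3.0 (SE 0.63) for Axin2, 2.26 (SE 0.36) for Lef1 and 2.05 (SE 0.11) for Lrp6. It was -2.29 (SE 0.15) for Celsr1, -1.70 (SE 0.18) for Daam1 and -1.0 (SE 0.20) for Znrf3, and -0.20 (SE 0.23) for Rnf43, which was not called. Median-of-ratios scaling moved the median of all genes by 0.14 on the log2 scale and turned the direction of none of the 8. Over all 21 alternatives only Rnf43 changed sign, with a range of -0.33 to 0.08, and it was called under none. Of all genes 74.5% did not overlap between these groups, as did 7 of the 8. The lymphoma and GC B-cell libraries came in separate tables with different shares of structural RNA, so the cell kind and the set of libraries cannot be told apart. All 6 GC B-cell markers were called lower in control lymphoma cells, with a median log2 fold change of -4.97. All 7 naive and memory B-cell markers were called higher, with a median of 2.13. Of 12 myeloid markers 4 were called higher, as were 2 of 3 stromal and endothelial and 1 of 2 precursor markers. Of 6 plasma-cell markers 4 were called lower and 1 higher, and of 5 erythroid markers 4 lower and 1 higher. Of 11 T-cell markers tested 10 were called higher in control lymphoma cells and 1, Lat, lower, with a median log2 fold change of 2.55. On the scale common to all 14 libraries Cd3g was at 7.25 ± 7.39 CPM (SD) in control lymphoma and 0.488 ± 0.265 CPM in WT cells. Lat was at 0.989 ± 0.184 CPM in control lymphoma and 3.23 ± 0.693 CPM in WT cells. The part of the markers in these changes of the 8 genes was not tested.

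Other WNT genes were followed in 7 role lists of 137 genes, the 8 left out, with values as mean ± SD over 4 KO, 3 WT, 2 shTet2 and 5 control libraries. In KO against WT GC B cells 77 of them were tested and 7 were called (9.09%, against 6.49% of all genes), 3 higher and 4 lower, with a median log2 fold change of 0.02 against 0.01 over all genes. DESeq2 called 10 of the 77, 3 higher and 7 lower, among them Bcl9, Tcf7 and Vangl1, which edgeR did not call. In shTet2 against control lymphoma cells 68 were tested and edgeR called 0, with 16 at an unadjusted p under 0.05, as were 19.1% of all genes there and 19.9% in GC B cells, while DESeq2 called 1, Birc5, and edgeR called 12 without shTet2 replicate 1. The median there was -0.12, against -0.00 over all genes.

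Among ligand and secretion genes 4 of 25 were tested in GC B cells and 2 were called, both lower in KO. Wnt10a, a WNT ligand, was at 2.27 ± 0.593 CPM in KO and 6.48 ± 0.751 CPM in WT cells (log2 fold change -1.51, SE 0.22, edgeR adjusted p = 0.000453). Wls, the carrier that brings WNT proteins to the cell surface, was at 3.48 ± 0.840 CPM in KO and 8.19 ± 2.27 CPM in WT cells (log2 fold change -1.23, SE 0.23, edgeR adjusted p = 0.00351). Both act upstream of the receptor step at which RNF43 works. In lymphoma cells 5 were tested and 0 were called, with Wls at 9.88 ± 0.702 CPM in shTet2 and 11 ± 1.27 CPM in control cells and Wnt16 at 1.85 ± 0.917 CPM in shTet2 and 2.57 ± 0.244 CPM in control cells.

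Of 17 receptor genes 8 were tested in GC B cells, and Lgr5, an R-spondin receptor that opposes RNF43 and ZNRF3, was called higher at 20.1 ± 3.63 CPM in KO and 13.8 ± 1.92 CPM in WT cells (log2 fold change 0.54, SE 0.15, edgeR adjusted p = 0.0462). In lymphoma cells 0 of 5 were called, and the Frizzled gene Fzd5 was at 6.04 ± 0.0115 CPM in shTet2 and 8.26 ± 0.619 CPM in control cells (edgeR adjusted p = 0.140). Of 17 antagonist genes 4 were tested in GC B cells, and Dkk3, of the Dickkopf family, was called higher at 6.47 ± 1.43 CPM in KO and 3.04 ± 0.332 CPM in WT cells (log2 fold change 1.09, SE 0.20, edgeR adjusted p = 0.00364). In lymphoma cells Dkk3 was at 11.9 ± 12.8 CPM in shTet2 and 2.96 ± 1.95 CPM in control cells and was not called, nor was Kremen1, at 9.55 ± 3.55 CPM in shTet2 and 11.8 ± 1.27 CPM in control cells.

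Cytoplasmic transduction and destruction complex genes, the partners of Axin2, had 0 of 19 called in GC B cells, with 2 at an unadjusted p under 0.05, and 0 of 18 in lymphoma cells, with 6. Their median log2 fold change was 0.08 for KO and 0.00 for shTet2. The smallest p belonged to the Dishevelled gene Dvl1 in GC B cells, at 89.3 ± 13.1 CPM in KO and 71.8 ± 6.24 CPM in WT cells. In lymphoma cells it belonged to Btrc, of the ligase that marks beta-catenin for destruction, at 10.1 ± 1.61 CPM in shTet2 and 14.2 ± 1.62 CPM in control cells. Ctnnb1, the gene of beta-catenin itself, was at 107.1 ± 2.49 CPM in shTet2 and 88.1 ± 8.0 CPM in control lymphoma cells (edgeR adjusted p = 0.165).

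Nuclear factors, the group nearest to Lef1 and Tcf7l2, had 1 of 17 called higher and 1 lower in GC B cells. Both encode Groucho co-repressors, with Tle1 at 11.3 ± 1.33 CPM in KO and 6.05 ± 1.68 CPM in WT cells (log2 fold change 0.90, SE 0.18, edgeR adjusted p = 0.00666) and Tle3 at 68.4 ± 11.3 CPM in KO and 97.1 ± 7.45 CPM in WT cells (log2 fold change -0.51, SE 0.12, edgeR adjusted p = 0.0150). In lymphoma cells 0 of 15 were called, with the co-activator gene Bcl9 at 24.9 ± 2.36 CPM in shTet2 and 34.1 ± 3.99 CPM in control cells (edgeR adjusted p = 0.0851). Planar polarity genes, the group of Celsr1 and Daam1, had 0 of 16 called in GC B cells, with 1 at an unadjusted p under 0.05, and 0 of 14 in lymphoma cells, with 2. In GC B cells the core polarity gene Vangl1 was at 0.641 ± 0.253 CPM in KO and 2.0 ± 1.40 CPM in WT cells (edgeR adjusted p = 0.0997, called lower by DESeq2). Its paralog Vangl2 was at 1.07 ± 0.558 CPM in shTet2 and 2.36 ± 0.632 CPM in control lymphoma cells (edgeR adjusted p = 0.141).

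Known target genes of beta-catenin had Lgr5 called higher and Ccnd2, which encodes cyclin D2, called lower among 11 tested in GC B cells. Ccnd2 was at 33.7 ± 2.77 CPM in KO and 47.9 ± 9.67 CPM in WT cells (log2 fold change -0.51, SE 0.12, edgeR adjusted p = 0.0226). In lymphoma cells 0 of 11 were called by edgeR, with 2 at an unadjusted p under 0.05. Birc5, the survivin gene, was at 6.91 ± 3.21 CPM in shTet2 and 1.75 ± 1.10 CPM in control cells (edgeR adjusted p = 0.0792). In the test of the difference between the effects 3 of 84 list genes were called (1 to 10 with single libraries left out, 10 without shTet2 replicate 1), all with a higher shTet2 effect, while DESeq2 called 7, 4 higher and 3 lower. Those called by edgeR included Wls at 1.05 (SE 0.29, edgeR adjusted p = 0.0385) and Birc5 at 1.83 (SE 0.45, edgeR adjusted p = 0.0372). The other was Kremen2, which was at 0 in every control lymphoma library, so that its fitted difference is not given.

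**Figure D4:**
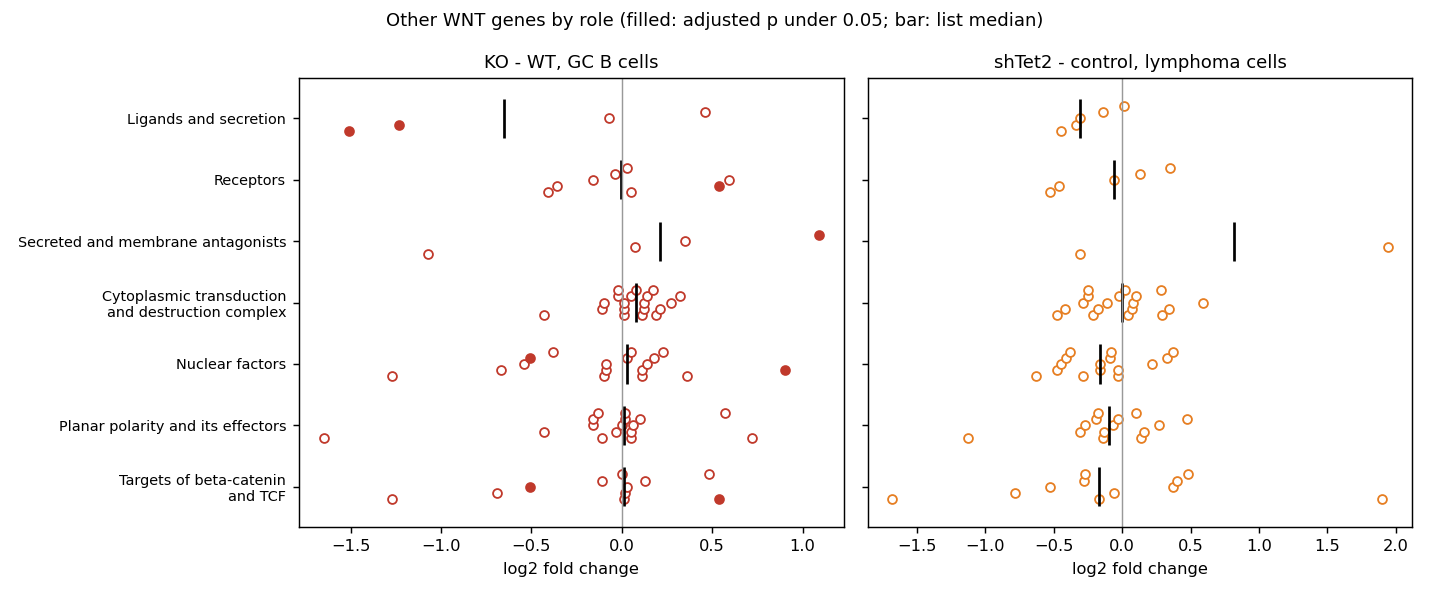
Log2 fold change of each tested gene of 7 WNT role lists, without the 8 genes themselves, in KO against WT GC B cells (left) and shTet2 against control lymphoma cells (right), with list medians as black bars and filled points at an adjusted p under 0.05. Filled points are present only on the left, where 7 of 77 genes were called, against 0 of 68 on the right.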

How the data were processed

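Per the labels' protocols, Trizol and RNeasy RNA went into TruSeq stranded mRNA libraries. Per the submitters' processing notes, STAR 2.3.0e and the build GRCm38.p3 were used. The deposited values are raw counts per gene, made with featureCounts 1.5.1 on GENCODE vM3 exons with no strand or paired-end option, per the file headers. Exon lengths were deposited in the same tables.

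Libraries were grouped by title. All 14 were used, and replicates differed by more than counting error in every pair. Each table was fitted by itself, and both together for the difference of effects and for control lymphoma against WT. The fits used edgeR 4.0.16 in R 4.3.3 (TMM scaling, filterByExpr, robust quasi-likelihood, Benjamini-Hochberg adjustment, threshold 0.05), with the log2 fold change divided by the root of F as SE. The tests were run on simulated data first. Log CPM used a prior count of 2. Alternatives were median-of-ratios scaling, no filter, a filter at 1 CPM in 2 libraries, DESeq2 1.42.0, a replicate block, structural RNA rows removed, structural RNA share as a covariate and each library left out. A wider list of structural RNA rows was added after seeing the data.

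The 8 genes, the gene lists and the markers were chosen with earlier results of these data known, and 1 marker list is not reported here. Named beside the 8 genes and Tet2 are, for each role list and main comparison, up to 3 called genes with the largest changes or, where none was called, up to 2 with the smallest p, not all of which are printed, and the 2 genes most like each member across libraries. Beyond that rule, genes called in the difference between effects, called markers and genes called by DESeq2 alone were named after their values were seen. Promoter windows are RefSeq's (GRCm38.p6) and were matched by symbol.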

Additional observations from a re-analysis of the deposited data

Results flagged for a closer look

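Among 16 sets of 4 or 5 libraries of the 8 genes, 3 held a library far from the others of its group by Dixon's criterion, which chance meets in about 1 of 20 sets. Celsr1 was at 12.2 CPM in KO replicate 2, below the other KO libraries, and still lower than every WT library. Tcf7l2 was at 3.28 CPM in control lymphoma replicate 1, above the other control libraries. Axin2 was at 0.602 CPM in KO replicate 5, from 18 counts, where the other KO libraries had 2 to 4 counts.

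The effect of shTet2 in lymphoma cells differed from that of the KO in GC B cells for 3 of the 8 genes in the 4-group edgeR model. Of all 15441 genes 4.99% were called there, 3.39% higher and 1.61% lower. With a replicate block Rnf43 was not called. The difference in log2 fold change, shTet2 effect minus KO effect, was 3.02 for Daam1, 2.20 for Rnf43 and 1.91 for Celsr1. These genes were chosen with results of these libraries known, so the values are a description.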

How the results depend on the processing

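Rnf43, Celsr1 and Daam1 were called lower in KO GC B cells under all 14 alternatives, with ranges of -1.98 to -1.81, -1.15 to -0.90 and -1.91 to -1.49. The alternatives reuse the libraries by which the 8 genes had been chosen, so they are no independent test of these changes. In control lymphoma against WT, 7 of the 8 genes were called under all 21, where the main fit called 80.7% of all genes. Axin2 in GC B cells had no value under the filter, and without a filter its log2 fold change was -0.13, not called. The lymphoma comparison was the least stable. Its 330 calls became 782 with no filter (2 other WNT genes), 593 with DESeq2 (1 other WNT gene) and 3 with the structural RNA share as a covariate (0 of the 8 genes). Leaving out single libraries gave 100 to 2481 calls, 1 to 5 of the 8 genes and 0 to 12 other WNT genes, the highest of each without shTet2 replicate 1. The 883 calls of KO against WT became 1365 with no filter (11 other WNT genes), and 607 to 944 without single libraries. The 771 called differences between effects became 1198 with DESeq2 (7 other WNT genes, 4 higher and 3 lower), and 283 to 2001 without single libraries, with 3 to 5 of the 8 genes and 1 to 10 other WNT genes. Same-numbered libraries of different groups did not deviate together (r of -0.10 to 0.03 over the numbers and comparisons). With so few libraries per group a small shared effect could be missed, so pairing by number was not excluded. With a replicate block, which leaves few degrees of freedom, 570 genes were called in GC B cells (3 of the 8), 4 in lymphoma cells (0 of the 8, Daam1 at 1.34) and 256 in the difference between effects (1 other WNT gene, and 2 of the 8, with Rnf43 at 2.09 not called). With the covariate, Lef1 was at 0.00, Tcf7l2 at -2.55, Rnf43 at -1.07, Celsr1 at 1.35, Znrf3 at 0.03 and Lrp6 at 0.01 in lymphoma cells, none called. The causes of these shifts were not tested. Depth limits Axin2, Tcf7l2 and Lef1, with 2 to 71 counts per library, and in control lymphoma libraries also Znrf3 (4 to 31 counts) and Celsr1 (12 to 45 counts).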

Other observations

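The genes whose log2 CPM followed each member most closely over the 14 libraries were found among 9749 or 9750 genes by Pearson's r, as a description. The libraries fall into 2 cell kinds that share tables and depth, and r was taken over both together. Lrp6 was followed most closely, by Atp2b1 (r = 0.998), a calcium pump gene, and Irf4 (r = 0.997), a transcription factor gene of the B lineage. Znrf3 was nearest to Rad54b (0.974), a recombination repair gene, and Slc35g1 (0.967). Lef1 was nearest to Traf3ip3 (0.973) and Zfp608 (0.961), Tcf7l2 to Dmd (0.967), the dystrophin gene, and Inpp5f (0.963), and Axin2 to Ugcg (0.949), a glucosylceramide synthase gene, and Galnt4 (0.944). The genes that were lower in KO GC B cells had Tox2 (0.952) and Cnst (0.949) nearest to Celsr1, Gbp8 (0.932) and Litaf (0.898) nearest to Rnf43, and Fam101a (0.886) and Ccdc91 (0.873) nearest to Daam1, whose nearest r was the lowest of the 8.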
